A study of Macaca mulatta with 6 samples.

Results

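The Krüppel-like factors are zinc finger transcription factors, and 9 genes of the family were followed across 6 colony libraries: KLF2, KLF3, KLF4, KLF6, KLF7, KLF9, KLF10, KLF11 and KLF13. They were chosen by symbol in the count table, whose rows carry either a symbol or an Ensembl identifier paired with one. Of the 9 genes, 8 had a row among 32386, each by 1 row only. KLF9, an early target of the glucocorticoid receptor, matched no row and was not analysed here.

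The libraries came from rhesus macaque granulocyte-macrophage colonies (CFU-GM), clusters of myeloid cells that grow in semi-solid medium from 1 CD34+ stem or progenitor cell. Marrow was taken 15 months after autologous transplantation of CD34+ cells treated with CRISPR/Cas9, which holds for both groups, and colonies grew for 14 days. By the labels, TET2 was wild type (WT) in 3 colonies, and in 3 it carried a predicted loss-of-function mutation of 1 allele, labelled TET2+/- or uniallelic (UA). TET2 encodes a dioxygenase that starts the removal of methyl groups from DNA and is often mutated in clonal hematopoiesis. Each colony is meant to be 1 clone. The labels do not give the number or age of the animals, or whether a WT colony descended from a treated cell, so the p-values measure only how far these libraries lie apart, and that spread can be technical.

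Family members share 3 C-terminal zinc fingers that bind GC-rich and CACCC-type promoter elements, and differ in the N-terminal part that recruits partners. KLF2, KLF4, KLF6 and KLF7 mainly act as activators, KLF3 binds the corepressor CtBP, and KLF10, KLF11 and KLF13 bind the SIN3A corepressor. In blood cells KLF2 is known for keeping T cells and monocytes quiescent, and KLF4 for its part in monocyte differentiation.

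Total counts ran from 6334264 in UA replicate 3 to 25485143 in WT replicate 1. TET2 itself had 1736, 971 and 1296 counts in the WT libraries and 4387, 2336 and 1554 in the UA ones, in order of replicate. Its scaled level was higher in UA (log2 fold change 1.30, SE 0.16, edgeR adjusted p = 3.93e-05), and a mutation of 1 allele need not lower the transcript, so this does not check the labels. The libraries are therefore named by label throughout. The UA libraries lay unusually close together, with a coefficient of variation beyond counting noise of 0.105 to 0.110 between pairs, against 0.201 for WT replicates 2 and 3 and 0.346 to 0.348 for pairs with WT replicate 1. Every UA pair differed by more than counting noise (chi-square per degree of freedom 4.29 to 5.21), which separately amplified libraries of the same RNA can do as well. They are treated as 3 samples because the labels list them so. Whether they share an RNA source was not tested, and a fit with the 3 UA libraries summed to 1 sample is given beside the main results. WT replicate 1 stood apart from the other WT libraries, and values without it are given where it matters.

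Transcripts of 7 of the 8 measured KLF genes were higher in the UA-labelled libraries and none was lower. KLF2, KLF10 and KLF4 rose the most, by 14-fold to 17-fold in mean level. KLF6, KLF13, KLF3 and KLF11 rose by about 3-fold to 5-fold, and KLF7 did not pass the test. Change was widespread in this comparison: of 13768 genes tested with edgeR's quasi-likelihood test, 66.0% were called at an adjusted p under 0.05, with 34.6% of those tested higher and 31.4% lower. Against that background, 7 of 8 KLF genes were called higher, and all 8 passed the filter on low counts. The median log2 fold change was 2.36 for the 8 KLF genes and 0.12 for all genes tested, the latter 0.91 with no filter on low counts. All 3 UA libraries lay above all 3 WT libraries for 7 of the 8, as they did for 39.2% of all genes.

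**Figure D1:**
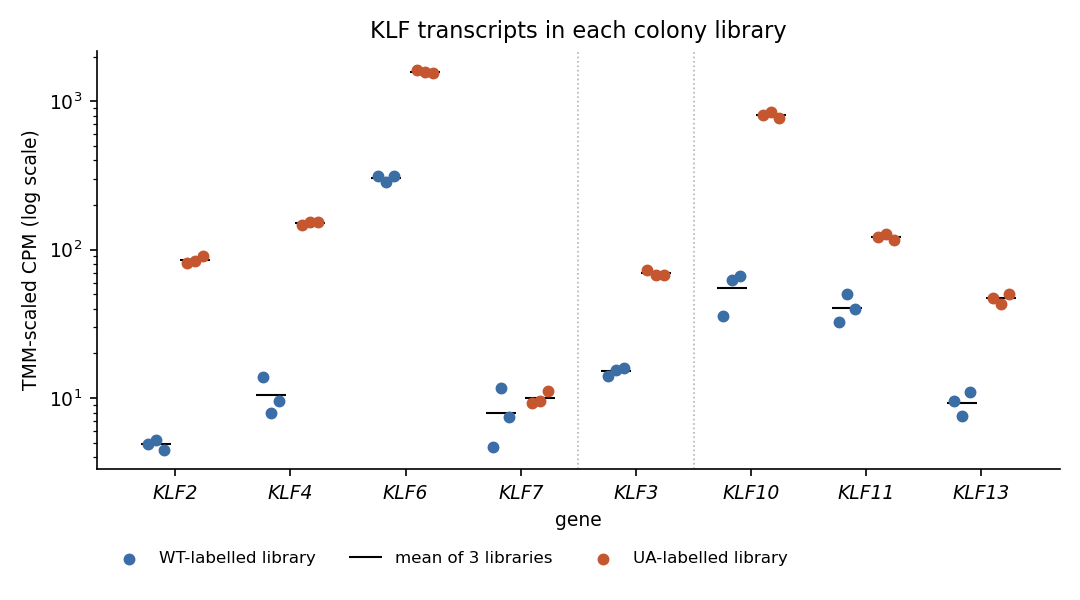
Level of each KLF gene in each of the 6 libraries, as TMM-scaled CPM (y axis, log scale), with WT-labelled libraries in blue, UA-labelled ones in orange and the mean of 3 libraries as a bar. Dotted lines part the activators, the CtBP-binding KLF3 and the SIN3A-binding members. The groups are separate for every gene shown except KLF7, where WT spans 4.71 to 11.8 CPM and UA 9.21 to 11.2 CPM.

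Among the activators, KLF2 was at 4.93, 5.26 and 4.46 CPM in WT replicates 1 to 3 and at 81.7, 83.5 and 90.2 CPM in UA replicates 1 to 3, where CPM is the count scaled by library total and TMM factor. The lowest UA library was 15.5 times the highest WT library, and both groups were tight. Its log2 fold change of 4.12 (standard error 0.20, edgeR adjusted p = 8.81e-08) was exceeded by 4.58% of all genes tested. The WT level rested on 108, 55 and 53 counts. The locus of KLF2 is given as chromosome 19, 16191926 to 16271547, by the authors' deposited table, whose build is not named. That is 79.6 kb, where the spans of the members run from 6.24 kb for KLF4 to 85.6 kb for KLF7. The 1 other gene listed within it had 1 count at most in any library. Whether all counts of the row come from KLF2 transcripts was not tested.

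KLF4 was at 13.9, 7.94 and 9.60 CPM in WT and at 146, 153 and 153 CPM in UA replicates 1 to 3. WT replicate 1 was the highest of the WT libraries, 1.76 times the lowest, and the lowest UA library was still 10.5 times above it. The log2 fold change was 3.82 (standard error 0.23, edgeR adjusted p = 4.03e-07), and 4.10 without WT replicate 1. KLF4 has the locus 32063779 to 32070018 on chromosome 15 in that table, with no other listed gene overlapping.

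KLF6, a widely expressed member that is induced early in many cells, had the largest counts of the family, from 2978 to 6902 in WT and from 10517 to 30076 in UA. Its level was 315, 285 and 315 CPM in WT replicates 1 to 3 and 1630.1, 1577 and 1553 CPM in UA replicates 1 to 3. No other member varied less within the WT group (coefficient of variation 5.71%), and its log2 fold change of 2.38 had the smallest standard error, 0.13 (edgeR adjusted p = 2.45e-07). The gene spans 3679835 to 3688583 on chromosome 9.

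KLF7, which has been studied mostly in neurons, was at 4.71, 11.8 and 7.49 CPM in WT and at 9.21, 9.62 and 11.2 CPM in UA. The groups overlapped, with WT replicate 2 above every UA library. The log2 fold change was 0.34 with a 95% interval of -0.43 to 1.10 (edgeR adjusted p = 0.409), an interval that still holds a 2-fold rise and that lies below the intervals of the 7 other members. The value turned on the WT libraries, at 0.06 without WT replicate 1 and 0.71 without WT replicate 2, and no setting called it. Its locus is chromosome 12 from 88839537 to 88925179.

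The CtBP-binding KLF3, known for opposing KLF1 at genes of the red cell lineage, was at 14.2, 15.6 and 16.0 CPM in WT and at 72.7, 67.9 and 67.6 CPM in UA. Both groups were narrow, and the lowest UA library was 4.23 times the highest WT one. Its log2 fold change was 2.19 (standard error 0.18, edgeR adjusted p = 2.37e-06). It spans 38304315 to 38338719 on chromosome 5.

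KLF10, also named TGF-beta-inducible early gene, was at 35.9, 62.8 and 66.7 CPM in WT and at 812, 847 and 776 CPM in UA. WT replicate 1 was the low one, with 1.86 times more in the highest WT library, and every UA library was at least 11.6 times above the highest WT value. The log2 fold change was 3.88 (standard error 0.24, edgeR adjusted p = 4.6e-07), and 3.66 without WT replicate 1. The table places it on chromosome 8 from 101365584 to 101374498.

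KLF11, the closest relative of KLF10 and likewise a TGF-beta-inducible gene, changed less. It was at 32.4, 50.01 and 39.8 CPM in WT and at 122, 127 and 116 CPM in UA, so that the lowest UA library was 2.31 times the highest WT one. Its log2 fold change of 1.58 (standard error 0.19, edgeR adjusted p = 3.31e-05) was the smallest among the 7 called members, with a 95% interval of 1.17 to 1.998 that lies apart from the 3.37 to 4.40 of KLF10. The difference between the members was not itself tested. KLF11 lies on chromosome 13 from 10053868 to 10068865.

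KLF13, known in T cells as a factor that binds the promoter of the chemokine gene CCL5, was at 9.50, 7.55 and 10.9 CPM in WT and at 47.3, 43.4 and 50.7 CPM in UA. The groups were apart by 3.96 times between their nearest libraries. The log2 fold change was 2.33 (standard error 0.22, edgeR adjusted p = 5.82e-06). Its span is 7193483 to 7244090 on chromosome 7.

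**Figure D2:**
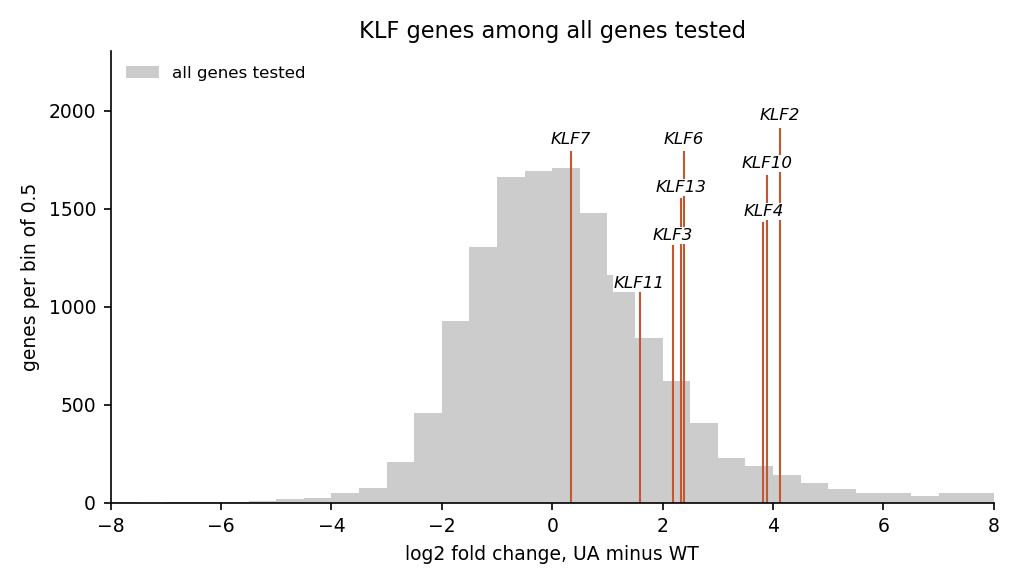
Histogram of the log2 fold changes (UA minus WT, x axis, shown from -8 to 8) of the genes tested, in bins of 0.5, with the 8 KLF genes as vertical lines whose heights only keep the names apart. KLF2, KLF10 and KLF4 lie together near 4, KLF6, KLF13 and KLF3 near 2.3, KLF11 at 1.58, and KLF7 near the middle of all genes.

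By size of change, KLF2, KLF4 and KLF10 had 95% intervals from 3.32 to 4.55 in all, and those of KLF3, KLF6 and KLF13 ran from 1.80 to 2.81. The activators KLF2 and KLF4 thus lie beside the SIN3A-binding KLF10, and the activator KLF6 beside KLF3 and KLF13, which bind corepressors. Of all genes tested, 7.87% had a log2 fold change above 3 and 15.4% above 2, while 3 and 6 of the 8 KLF genes did. With the 3 UA libraries summed, which leaves the WT libraries as the sole source of spread, 7 were called as well, with log2 fold changes from 1.61 for KLF11 to 4.12 for KLF2 (edgeR adjusted p of 1.9e-06 to 0.00263).

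Spread within a group also differed between members. In WT the coefficient of variation ran from 5.71% for KLF6 to 44.5% for KLF7, with a median of 25.5% over all genes tested. In UA it ran from 2.48% for KLF6 to 10.6% for KLF7, with a median of 10.9% over all genes. KLF2, KLF3 and KLF6 varied by under 10% in both groups. WT replicate 1 was the lowest WT library for 4 of the 8 members and the highest for 2, so the members did not shift together in it.

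Other genes of the family were mixed. Of 8 further KLF genes 7 had a row and 4 passed the count filter, with a median log2 fold change of 1.53. Of these 4, 2 were higher, 1 lower and 1 not called, beside 34.6% higher and 31.4% lower over all genes. KLF12, another CtBP-binding repressor, rose from 4.35 ± 0.775 to 19.1 ± 2.97 CPM (SD, n = 3 each), with an edgeR adjusted p of 4.33e-05 and a log2 fold change of 2.13. KLF8, which binds CtBP too, had a log2 fold change of 0.93 (edgeR adjusted p = 0.0549) and was called in 4 of 14 other settings. KLF16, a SIN3A-binding member, was near the limit of detection, with 2 counts over the WT libraries and 45 over the UA ones. That is a ratio of 27.9 with a 95% exact counting interval of 7.30 to 238, and both WT counts came from WT replicate 3. Its fitted log2 fold change of 4.58 was 3.80 without WT replicate 1 and 7.21 without WT replicate 3, where no WT count is left and the value depends on the prior count. Its call (edgeR adjusted p = 0.00371) was lost with the UA libraries summed (adjusted p = 0.0757).

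KLF1, the activator that drives globin and other red cell genes, was the only KLF gene called lower. It was at 13.6, 10.1 and 9.85 CPM in WT and at 5.96, 4.33 and 8.86 CPM in UA, so the groups were separate but the nearest libraries close. Its log2 fold change was -0.83 (standard error 0.32, edgeR adjusted p = 0.0404). This call is weak, as it was lost in 7 of 15 other settings, among them WT replicate 1 left out (-0.66, adjusted p = 0.0935) and the UA libraries summed (-0.88, adjusted p = 0.203). Below the filter, KLF14 had 6 counts in WT and 5 in UA, KLF15 had 13 and 20, and KLF17 had 6 and 0. KLF5 matched no row.

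The SP factors, the nearest relatives of the KLF genes with the same zinc fingers, rose in 4 of 4 members tested. Over all genes 34.6% were higher. The median log2 fold change of the 4 was 2.48. SP1, a general activator at GC-rich promoters, had 5.65 ± 2.90 CPM in WT and 36.7 ± 3.53 in UA (SD, n = 3 each). SP3, which competes with it for the same sites, had 86.5 ± 44.2 and 402.8 ± 13.3 CPM. SP4 was at 0.731, 4.40 and 4.29 CPM in WT and at 38.0, 44.4 and 42.1 CPM in UA, with WT replicate 1 far below the other WT libraries. It was also the lowest WT library for SP1 (2.42 against 8.03 and 6.48 CPM) and SP3 (35.7 against 109 and 115 CPM). SP1, SP3 and SP4 had log2 fold changes of 2.74, 2.22 and 3.80 (edgeR adjusted p of 8.66e-05, 0.000229 and 6.42e-05). With 1 library left out, the lowest values of these were 2.35, 1.855 and 3.26. SP2 had 0.73 (edgeR adjusted p = 0.0321), a call lost with the UA libraries summed (adjusted p = 0.205) and with any 1 UA library left out. The other 5 SP genes were below the filter, with no count in WT and 2 to 38 counts in UA.

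**Figure D3:**
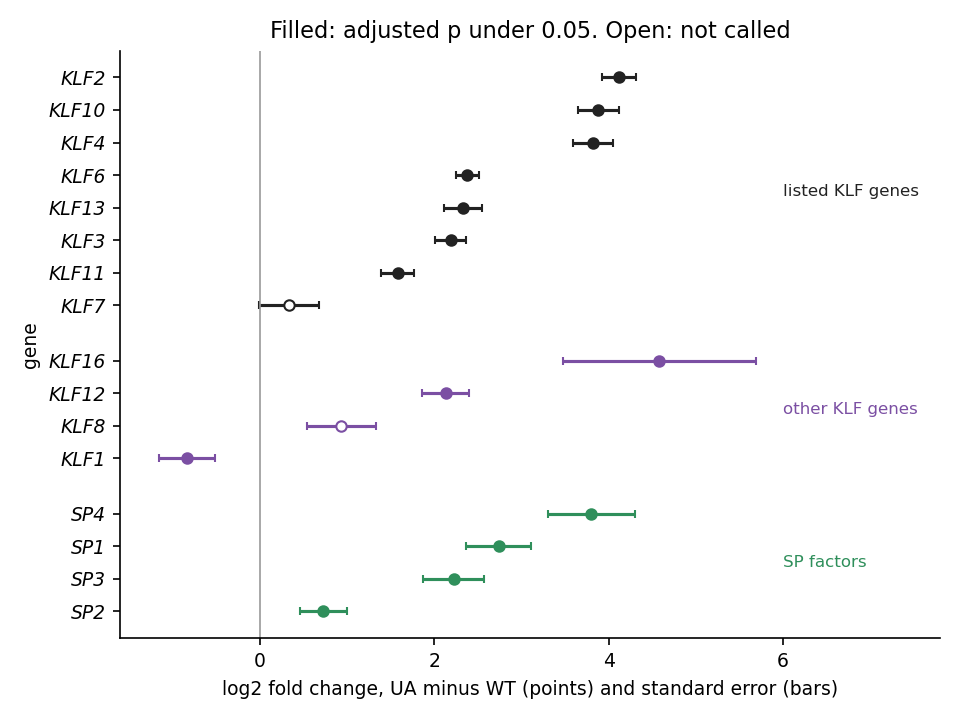
Log2 fold change (UA minus WT, x axis) with its standard error for the 8 listed KLF genes (black), the 4 other KLF genes tested (purple) and the 4 SP genes tested (green), filled where the adjusted p was under 0.05. Only KLF1 lies below 0, and the wide bar of KLF16 goes with its 2 counts in WT.

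Of 9 corepressor and coactivator genes tested, partners of the KLF factors, 4 rose, 3 fell and 2 were not called, with a median log2 fold change of 0.36, beside 34.6% higher and 31.4% lower over all genes. The acetyltransferase coactivators CREBBP, KAT2B and EP300 rose by log2 fold changes of 2.92, 2.64 and 2.24 (edgeR adjusted p of 5.21e-07, 0.000351 and 2.89e-06). CREBBP was at 12.4, 13.6 and 16.3 CPM in WT and at 107, 110.5 and 103 CPM in UA, and EP300 at 42.4, 65.4 and 59.0 against 278, 255 and 254 CPM. SIN3A, the corepressor scaffold, rose from 31.4 ± 2.60 to 103 ± 2.22 CPM (log2 fold change 1.72, edgeR adjusted p = 6.44e-06), while SIN3B had a log2 fold change of 0.36 (edgeR adjusted p = 0.119, and 0.038 with library size alone).

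The 3 genes called lower were HDAC1, HDAC2 and CTBP2. HDAC1 and HDAC2, the deacetylases of the SIN3 complex, had log2 fold changes of -0.78 and -0.43 (edgeR adjusted p of 0.000394 and 0.0192), and CTBP2, a CtBP corepressor, one of -0.44 (edgeR adjusted p = 0.0285). With the UA libraries summed none of these 3 was called (adjusted p of 0.0943, 0.370 and 0.374). CTBP2 and HDAC2 were also not called with upper-quartile factors (adjusted p of 0.0723 and 0.0514), with library size alone, or with any 1 UA library left out. CTBP1 had a log2 fold change of -0.10 (edgeR adjusted p = 0.558), but 0.05 when scaled by library size alone. Of 3 ubiquitin ligases known to act on KLF proteins, WWP1 matched no row, and FBXW7 and SMURF1 rose by 1.72 and 1.77 on the log2 scale (edgeR adjusted p of 0.000107 and 0.0059). WT replicate 3 had more SMURF1 than the other WT libraries (9.35 against 2.28 and 3.44 CPM), and without it the log2 fold change was 2.58.

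Of 10 genes tested around the ERK5 kinase pathway, which induces KLF2 and KLF4 through MEF2 factors in endothelium, 9 were higher. Over all genes 34.6% were. The 9 include deacetylases that hold MEF2 factors in check, so the count gives no direction of the pathway. The pathway list had a median log2 fold change of 2.10. Its kinases MAP3K2, MAP3K3 and MAP2K5 rose by 2.69, 1.68 and 1.46 on the log2 scale (edgeR adjusted p of 5.82e-06, 0.000108 and 7.38e-05). MAPK7, which encodes ERK5 itself, was the exception, at 9.68 ± 2.69 CPM in WT and 8.17 ± 1.45 in UA (SD, n = 3 each; log2 fold change -0.25, edgeR adjusted p = 0.501). MEF2D was at 10.9, 9.47 and 7.83 CPM in WT and at 96.0, 106 and 104 CPM in UA, a log2 fold change of 3.43 (edgeR adjusted p = 2.56e-07). MEF2A and MEF2C rose by 2.01 and 1.45, and HDAC4, HDAC5 and HDAC7, deacetylases that hold MEF2 factors in check, by 2.25, 2.24 and 2.18 on the log2 scale (edgeR adjusted p of 5.78e-06 to 0.000325).

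Genes described as targets of KLF2 or KLF4 moved in both directions. Of 7 tested, 4 rose, 1 fell and 2 were not called, beside 34.6% higher and 31.4% lower over all genes. Their median log2 fold change was 1.17. Of the 4 that rose, NOS3 was not called in 6 of 14 other settings. S1PR1, the sphingosine phosphate receptor that lets lymphocytes leave tissue, was at 6.76, 11.6 and 11.4 CPM in WT and at 87.0, 92.6 and 91.6 CPM in UA (log2 fold change 3.21, edgeR adjusted p = 1.54e-06). CD14, the lipopolysaccharide co-receptor of monocytes and a reported KLF4 target, fell from 1147 ± 233 to 21.7 ± 2.95 CPM (log2 fold change -5.73, edgeR adjusted p = 2.72e-08). ITGB7, an integrin chain, and CDKN1A, the p21 inhibitor of the cell cycle, had log2 fold changes of 0.21 and 0.04 (edgeR adjusted p of 0.397 and 0.824), and that of CDKN1A was -0.08 without WT replicate 1.

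Lists of signals known to induce KLF genes were examined next, beside 34.6% higher and 31.4% lower over all genes. KLF10 and KLF11 are TGF-beta early genes, and 4 of 4 other such genes tested were higher, with a median log2 fold change of 2.27. Among them were SKIL (2.51) and TGIF1 (1.18), with edgeR adjusted p of 9.47e-06 and 0.000108. SMAD6 of the same list, named after its value was seen, was below the count filter and went the other way. It had 14, 29 and 16 counts in WT and 7, 2 and 2 in UA (means of 1.59 and 0.289 CPM). Glucocorticoid receptor targets were split, with 3 of 5 higher and 1 lower and a median of 0.53. The median gene was ZBTB16, whose call as higher (edgeR adjusted p = 0.0274) was lost in 8 of 15 other settings. PER1, a clock gene, rose from 4.27 ± 0.314 to 151 ± 4.17 CPM, TSC22D3, which encodes GILZ, had a log2 fold change of 3.08 (edgeR adjusted p = 1.82e-07), and SGK1 one of 0.33 (edgeR adjusted p = 0.0689, called in 6 of 15 other settings). FKBP5, the immunophilin used as a standard readout of this receptor, went down (log2 fold change -0.67, edgeR adjusted p = 0.00725, adjusted p = 0.158 with the UA libraries summed). Immediate-early genes, which like KLF2, KLF4, KLF6 and KLF10 respond fast to growth signals and to handling, were higher in 8 of 10 tested and lower in 1, with a median of 2.83. One of the 8 was FOS, at a log2 fold change of 0.43 (edgeR adjusted p = 0.0156), a call lost in 3 of 15 other settings. JUN, EGR3, IER2 and IER3 matched no row. ZFP36, NR4A1 and EGR1 rose by 3.09, 3.76 and 3.21 on the log2 scale (edgeR adjusted p of 6.76e-08, 1.42e-06 and 2.62e-06). JUNB had a log2 fold change of 0.34 (edgeR adjusted p = 0.0809, called in 6 of 15 other settings), and EGR2, named after its value was seen, was lower (-1.12, edgeR adjusted p = 0.000151).

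**Figure D4:**
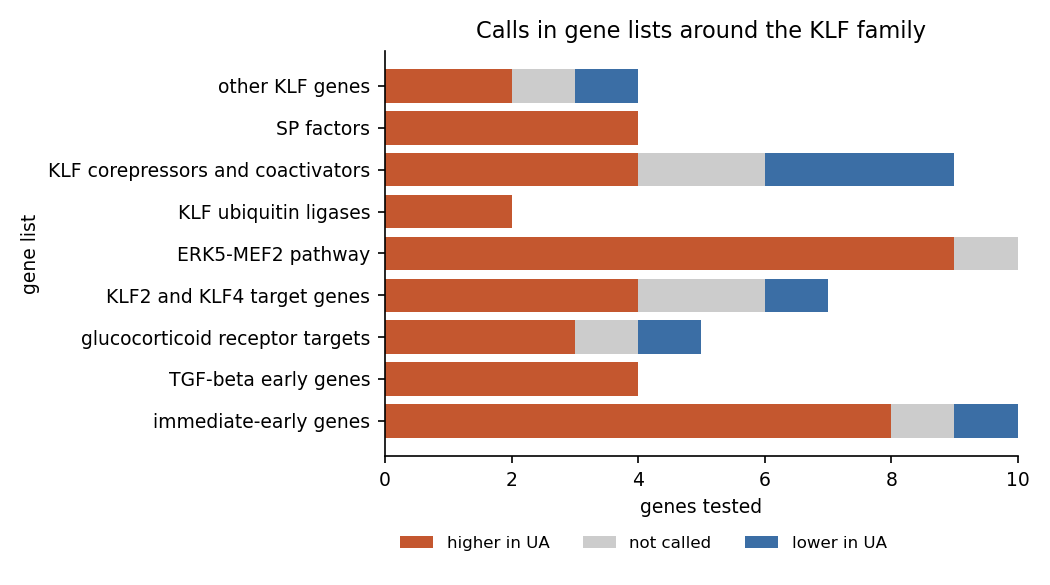
Number of genes tested in each of 9 lists around the KLF family (x axis), split into those called higher in UA (orange), not called (grey) and called lower (blue) at an adjusted p under 0.05. Over all genes tested 34.6% were higher and 31.4% lower. Genes below the count filter are not shown. All tested SP factors (4), ubiquitin ligases (2) and TGF-beta early genes (4) were called higher, and the corepressor and coactivator list holds 3 called lower. Some of these calls were lost in other settings, and the lists were chosen with earlier results of these data known.

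Many markers of other cell types rose with the KLF genes, and their part in the KLF values was not tested. The counts that follow are to be read beside 34.6% higher and 31.4% lower over all genes. KLF2 and KLF4 are also prominent genes of endothelium, and 6 of 7 endothelial markers tested were higher in UA and 1 lower, with a summed level of 254 to 370 CPM in WT and 529 to 540.2 CPM in UA. The WT sum came mostly from EGFL7, the marker that fell, from a mean of 259 to 122 CPM. Stromal markers were higher in 5 of 6 (summed 111 to 127 CPM in WT, 924 to 957 CPM in UA). There the WT sum came mostly from DCN, which fell from a mean of 113 to 21.6 CPM, while COL1A1 and COL1A2 rose from 0.810 and 0.942 to 319 and 559.96 CPM. Megakaryocyte markers were higher in 4 of 5 (4.97 to 8.50 against 532 to 550.1 CPM). All 4 B cell markers were higher, at 49.8 to 58.8 CPM summed in WT and 290 to 318 CPM in UA. T cell markers were low in both groups (4.46 to 5.83 and 21.4 to 30.8 CPM summed), with CD3E and CD8A at 0 counts in all WT libraries, and 2 of 2 tested were higher. Erythroid markers, to be set beside KLF1, were lower in 1 and higher in 2 of 3 tested, with a summed level of 200.2 to 246 CPM in WT and 25.9 to 32.6 CPM in UA that in WT came mostly from RHAG, an erythroid membrane protein (log2 fold change -4.06, edgeR adjusted p = 9.78e-08). Granulocyte and macrophage markers, those of the labelled colony type, had counts in both groups, with 8 of 10 tested higher in UA. Their summed level was 1947 to 2036 CPM in WT and 32092 to 33058 CPM in UA, so the groups differed widely in it. The UA sum came mostly from the granule protein genes MPO, LYZ, CTSG and ELANE, at means of 16743, 7600, 3870 and 3111 CPM. In WT these 4 were at 810, 464, 219 and 94.2 CPM, so the sum says little about the other markers. The monocyte gene CD14, which is not in this list, fell as given above. SPI1 fell (log2 fold change -1.48, edgeR adjusted p = 1.52e-05), and CSF1R was not called (0.20, edgeR adjusted p = 0.448). In such colony RNA, fewer cells of a type and less RNA per cell cannot be told apart.

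The genes with profiles most like those of KLF2 and KLF4 were sought over the 6 libraries, among 9336 other genes with a mean of at least 5 CPM, by the Euclidean distance between log2 CPM centred on each gene's mean. Nearest to KLF2 were LYZ (distance 0.27), LRP1 (0.33), SIGLEC5 (0.36) and PLCG1 (0.40), of which LYZ encodes lysozyme, LRP1 a scavenger receptor and PLCG1 a phospholipase. Nearest to KLF4 were VWF (0.27), YPEL5 (0.43), BLNK (0.43) and CTSG (0.44), of which VWF encodes the von Willebrand factor of endothelium and megakaryocytes, BLNK a B cell adaptor and CTSG the neutrophil protease cathepsin G. Their log2 fold changes ran from 3.70 for YPEL5 to 4.17 for LRP1, a likeness that the choice by profile fixes. LRP1, SIGLEC5 and PLCG1 had WT means of 0.870, 2.61 and 3.37 CPM and reached the 5 CPM minimum only through UA.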

How the data were processed

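Colony RNA was amplified with SMART-Seq V4 and made into 6 Nextera XT libraries, per the labels' protocols. The chemistry keeps neither strand nor molecule tags. The submitters' processing notes name build Mmul_8.0.1 and bcl2fastq, with the aligner and counter not given in the sources used here. Raw counts per gene were deposited, with no normalization. The authors also deposited a differential expression table with a mean of normalized counts (a signal), log2 fold changes with standard errors, a statistic (a score), p-values and adjusted p-values. Its groups are not named, and it served for symbols and coordinates, with its values given only among the other observations. Symbols came from row names (2529 rows), that table (9226) or a gene name table (7223).

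The counts of all 6 libraries were fitted with edgeR 4.0.16 in R 4.3.3 (quasi-likelihood F-test, robust, label as the only term), after filterByExpr (minimum count 10, minimum total 15) and TMM scaling, with factors of 0.86 to 1.07. Benjamini-Hochberg adjustment ran over 13768 genes. Standard errors are the log2 fold change over the square root of F, and intervals are at 95%. The fit was also run on simulated counts, with the same spread for all genes and both groups, unlike these libraries. That outcome is not reported here and does not vouch for the fit. Alternatives used DESeq2 1.42.0, limma 3.58.1 (voom), other scalings and filters, a replicate block, summed UA libraries and each library left out. A count of 0 allows up to 3 counts, or 0.118 to 0.474 CPM of the library totals. Intervals on counts cover counting error only, since reads are amplified copies.

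Members and gene lists were chosen with earlier results of these data known. Named were the 9 KLF genes, any gene of the family, partner and ERK5 lists, and elsewhere the 3 called genes of smallest p, up to 3 genes not called, and the 4 nearest profiles. Some genes that this rule names are not reported here, and the counts and medians of their lists include them. No sequence was used here.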

Additional observations from a re-analysis of the deposited data

How the results depend on the processing

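Over 15 alternatives, 120 values of the 8 KLF genes were recomputed and none changed its direction or its side of the threshold: 7 members were called higher in each. With the UA libraries summed to 1 sample, 5360 of the genes tested were called, 2950 of them higher and 2410 lower, against 9091 in the main fit, 4770 higher and 4321 lower. That fit takes its spread from the WT libraries alone and has fewer samples. Among 55 other listed genes, 17 changed a call or a direction in at least 1 setting, and 11 lost their call in the summed fit. Besides those named above, these were NOS3, ZBTB16, ID1 and FOS (adjusted p of 0.187, 0.314, 0.0994 and 0.27), named after their values were seen. CTBP1 had a log2 fold change of 0.053 with library size alone, and CDKN1A one of -0.053 with limma-voom and from -0.079 to 0.117 with 1 library left out; the cause was not tested. The median log2 fold change of all genes moved from 0.121 to 0.28 with library size alone and to 0.914 with no filter on low counts, which adds genes of few counts. Replicate numbers did not pair the libraries: deviations of same-numbered WT and UA libraries correlated at 0.013, 0.022 and 0.013, each the highest for its number but near 0. With a replicate block 7 KLF genes and 8939 genes in all were called. Depth limits low genes such as KLF16, with 2 counts over the WT libraries.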

Other observations

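The authors' deposited table of differential expression holds 21997 genes and does not name the groups it compares. Across the 9874 genes shared with the fit above, which are not independent replicates, its log2 fold changes had a Pearson r of -0.417 with those of UA against WT. In the authors' deposited table, KLF2 has a log2 fold change of -5.20 and a mean of 10.4 normalized counts, whereas its counts in the 6 libraries were 53 to 1508. KLF4 and KLF7 have log2 fold changes of -2.87 and -3.68 in the authors' deposited table, and KLF3, KLF6, KLF10, KLF11 and KLF13 have 4.66, 2.58, 1.51, 1.04 and 1.13. The deposited mean is 731 normalized counts for KLF3 and 282 for KLF6. In each of the 6 libraries KLF6 had more counts than KLF3 (2978 to 30076 against 163 to 1342). Scaling whole libraries cannot reverse that order, so the deposited means do not follow from the counts of these 6 libraries. The deposited fold changes are therefore not read as a second estimate of UA against WT. Which libraries they stand for was not tested.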
